A study of Homo sapiens with 8 samples.

Results

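The genes described here are 10 feedback and target genes through which FLT3-ITD signaling can be read at the RNA level, namely DUSP6, SPRY2, SPRY4, ETV5, PIM1, PIM2, CISH, SOCS2, SOCS3 and STAT5A. They were taken by their gene symbol from a table of 26364 genes, and all 10 were found in it. MV4-11 is an established human AML cell line that carries a FLT3-ITD mutation and an MLL-AF4 fusion, so both alterations were present in every library, control included. The cells received DMSO (control), the LSD1 inhibitor tranylcypromine (TCP) at 5 μM, the CDK4/6 inhibitor palbociclib at 0.5 μM, or both molecules (combination), and RNA was collected on day 4. There were 2 replicates per group and 4 groups, hence 8 libraries. According to the methods, the CDK6 inhibitor was given 1 day ahead of a second molecule, and the cell lines were grown on human HS-5 stromal cells, a layer that the labels of these libraries do not mention. The labels do not say what separates the replicates, so the p-values measure the spread between these libraries, which may be technical.

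FLT3 is a receptor tyrosine kinase of hematopoietic progenitors, and its internal tandem duplication makes it signal without ligand. The signal runs through the RAS-RAF-MEK-ERK cascade (MAPK) and, for the duplicated receptor, through direct activation of the transcription factor STAT5. Both arms switch on genes that feed back on the signal: DUSP6 encodes a phosphatase of ERK, the Sprouty proteins SPRY2 and SPRY4 restrain the pathway between receptor and RAF, and CISH, SOCS2 and SOCS3 belong to the SOCS family that binds cytokine receptors and their kinases. ETV5 is an ETS transcription factor induced by ERK, and PIM1 and PIM2 are survival kinases transcribed under STAT5. FLT3 and CDK6 are known to affect each other's expression, and the comparisons below ask how the outputs of the pathway stood under each inhibitor.

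CISH is the textbook STAT5 target of the list, and the 250 bases before its transcription start are shown because they hold the motif bound by STAT5. The region is chr3:50649206-50649455 of GRCh37 on the minus strand, found by exact match of the RefSeq promoter sequence, and capitals mark the motif TTCNNNGAA, which reads the same on both strands.

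CISH promoter: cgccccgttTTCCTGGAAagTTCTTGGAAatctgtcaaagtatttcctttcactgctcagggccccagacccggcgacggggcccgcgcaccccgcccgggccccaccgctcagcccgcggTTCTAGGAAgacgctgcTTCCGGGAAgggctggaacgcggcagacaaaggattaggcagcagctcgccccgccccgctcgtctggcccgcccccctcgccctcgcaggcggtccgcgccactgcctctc

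The 4 matches begin 241, 230, 129 and 112 bases before the start. Of 35116 RefSeq promoters of the same length, 6.57% held at least 1 match and 5 promoters held 4 or more. The RefSeq table had promoters for 8 of the 10 genes, ETV5 and SOCS2 not among them, and CISH was the only one of these 8 with a match. A match is a description of the letters, and no match says nothing about STAT5 at the other genes, whose sites can lie elsewhere.

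Levels are given as TPM, a unit that divides by gene length and is scaled to the same sum in every library, so the sequencing depth is unknown. The changes are differences of log2(TPM + 1), which understates those of low genes, tested with limma over the 14151 genes that reached 1 TPM in 2 or more libraries. DEG is used here for a log2 fold change of 1 or more in either direction with an adjusted p (Benjamini-Hochberg) under 0.01, while rose or fell is written of any gene with an adjusted p below 0.05. For a single gene with 2 libraries against 2, the smallest two-sided p of an exact permutation test is 0.333, and the limma values therefore lean on the spread shared across genes.

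All 6 myeloid markers checked (PTPRC, SPI1, CD33, CSF1R, MPO and LYZ) were above 1 TPM in every library. All 6 rose under palbociclib and under the combination (limma adjusted p below 0.05), and their sum was 662 to 2118 TPM in the 4 libraries without palbociclib and 17094 to 29419 TPM in the 4 with it. Nearly all of the sum with palbociclib was LYZ, at 16431 to 28617 TPM, against 278 to 1696 TPM without it. SPI1, the next highest with palbociclib, had 208 to 264 TPM without it and 410 to 497 TPM with it. The 16 stromal markers, with IGFBP7 at 95.9 to 154 TPM as most of the sum, summed to 121 to 124 TPM without palbociclib and to 159 to 255 TPM with it, and POSTN was listed at 0 throughout. The 10 stromal markers tested all had a positive log2 fold change under palbociclib and under the combination, and 3 and 2 of them rose. The counts of both lists are to be read beside the 14.8% and 15.9% of all tested genes that rose in these comparisons. The sums of both marker lists were thus higher with palbociclib. SOCS3, ETV5, PIM2 and SOCS2, described below, also changed with palbociclib, and the part of the markers in these results was not tested. Collagen transcripts stood highest in palbociclib replicate 2, where COL1A1 had 22.2 TPM against 0.151 to 3.78 TPM in the other libraries. The 10 most abundant genes took 9.12% to 9.67% of the TPM without palbociclib and 14.0% to 15.8% with it. All comparisons with control use the same DMSO libraries. The median tested gene moved by -0.04 with TCP, by -0.16 with palbociclib and by -0.22 with the combination on the log2 scale, and small decreases are to be read against this shift.

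In control cells the 10 genes spanned a wide range of levels per length. PIM1 was the highest at 479 ± 81.4 TPM (SD, n = 2), above 98.3% of the genes tested. DUSP6, PIM2 and CISH followed at 94.7 ± 11.5, 93.4 ± 2.54 and 88.4 ± 27.8 TPM (SD, n = 2), and these 3 did not differ beyond their spread. SOCS3 at 54.0 ± 2.10 and ETV5 at 43.7 ± 3.11 TPM (SD, n = 2) came next, then SOCS2 at 25.8 ± 2.51 TPM. STAT5A at 14.1 ± 2.35 and SPRY2 at 10.2 ± 3.45 TPM (SD, n = 2) overlapped in their libraries. SPRY4 was barely expressed, between 0.0558 and 0.347 TPM over the 8 libraries, did not reach 1 TPM in any of them and was not tested. The counts below are therefore over 9 genes.

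**Figure D1:**
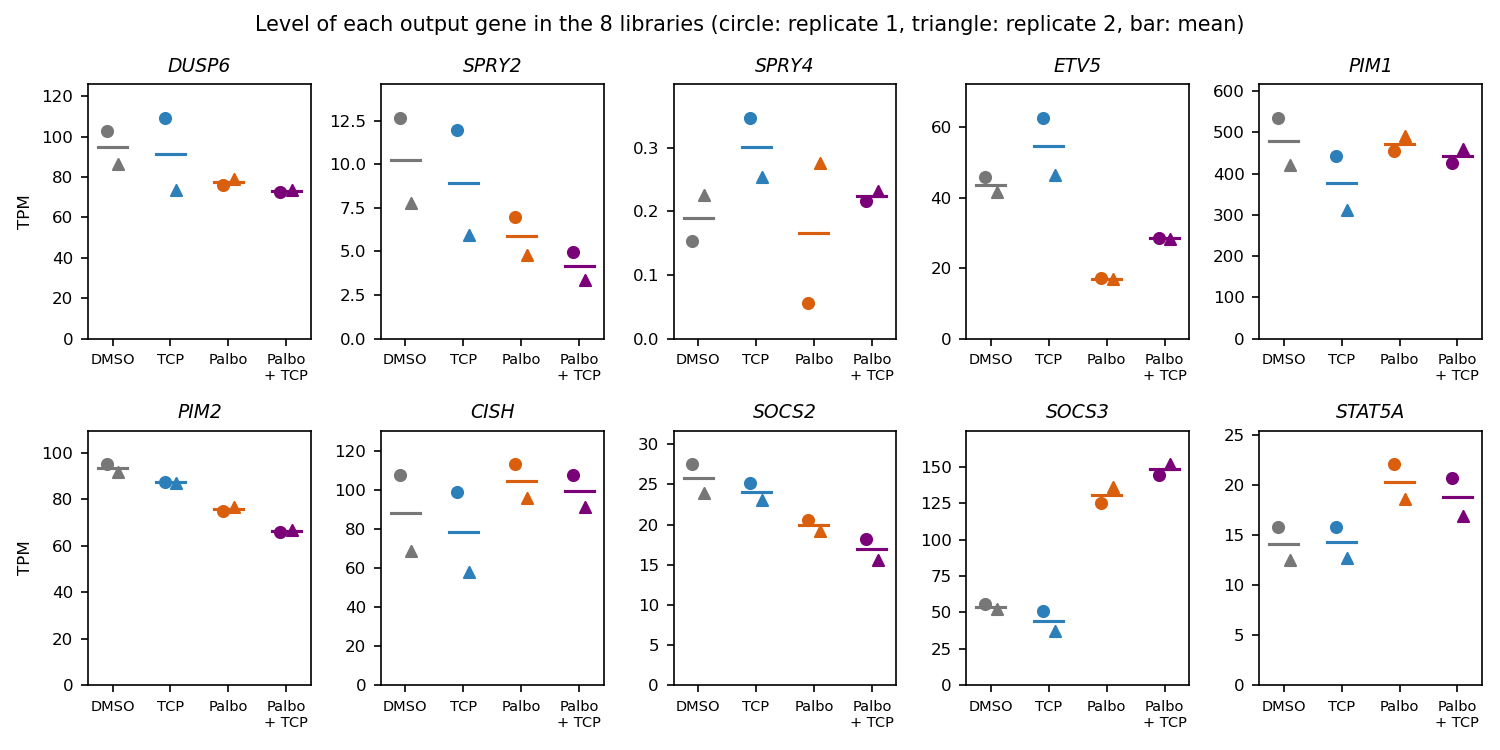
TPM (vertical axes, from 0) of the 10 genes in each library, by treatment. Circles are replicate 1, triangles replicate 2 and bars the mean of both. SOCS3 stood between 126 and 152 TPM in the 4 libraries with palbociclib and between 37.2 and 55.5 TPM in the others, while ETV5 was lowest under palbociclib alone.

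Palbociclib moved the genes in different directions. Of the 9 genes tested, SOCS3 rose and was a DEG, ETV5 fell and was a DEG, and PIM2 and SOCS2 fell by smaller amounts. The 2 DEG stand beside 9.1% of all tested genes that were DEG under palbociclib, and the 4 genes with an adjusted p below 0.05 beside 45% of all tested genes, so these shares are to be read against a transcriptome that moved widely. The combination gave 1 DEG, SOCS3, beside 13.7% of all genes, and 5 of the 9 genes had an adjusted p below 0.05 beside 53.6%. TCP alone gave none of the 9, with 0 at an unadjusted p below 0.05 and 0 with the replicate block (1.39% of all genes), beside 0.0565% DEG among all genes and 0.431% at an adjusted p below 0.05. The libraries of 7 of the 9 genes did not overlap those of control under palbociclib, beside 76.2% of all genes, and the same number held under the combination, beside 80.2%, while TCP gave 3 of the 9 beside 34.7%. The median log2 fold change over the 9 genes was -0.28 under palbociclib, -0.36 under the combination and -0.10 under TCP.

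**Figure D2:**
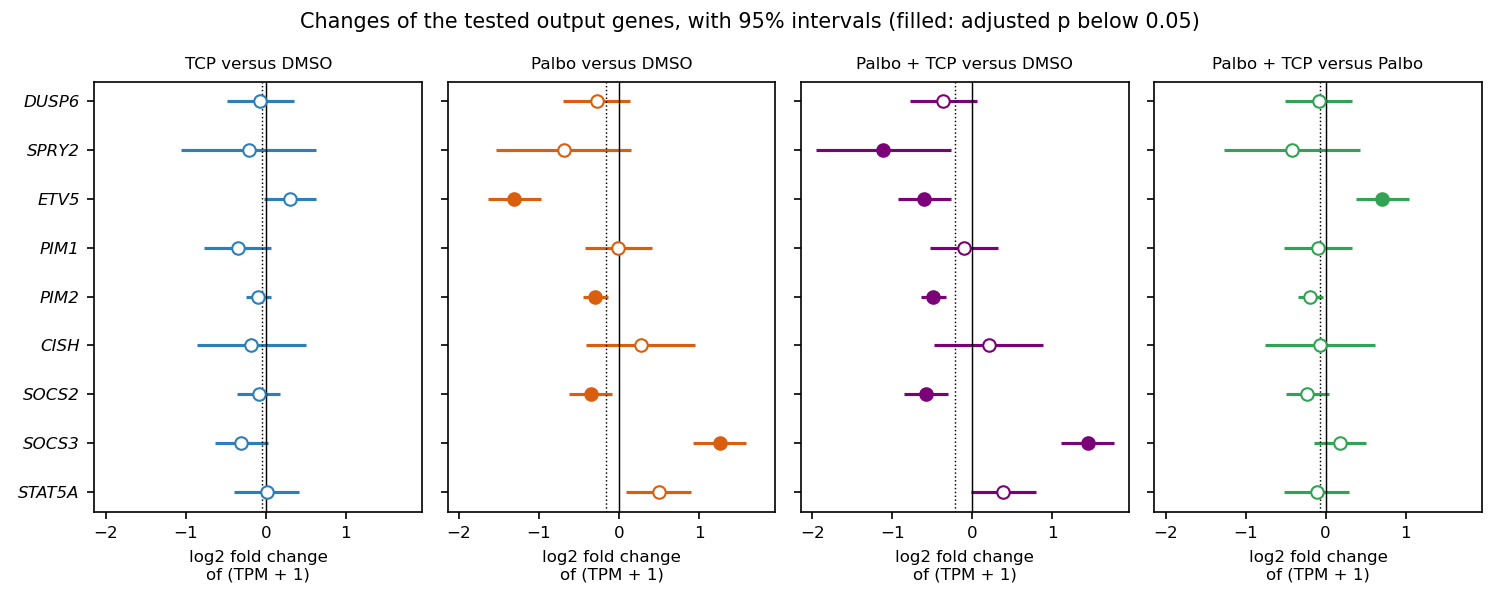
Log2 fold change of (TPM + 1) of the 9 tested genes (horizontal axis) in 4 comparisons, with 95% intervals from limma. Filled points have an adjusted p below 0.05, the solid line is 0 and the dotted line the median of all tested genes. SOCS3 at 1.26 and 1.44 and ETV5 at -1.31 and -0.60 against control are filled in both comparisons, SPRY2 at -1.11 is filled under the combination, and ETV5 at 0.71 was the filled point of the combination against palbociclib.

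Of the 3 tested genes induced by ERK, ETV5 (chromosome 3, 185764103 to 185828107, minus strand) was the one that passed the test under palbociclib. ETV5 had 45.9 and 41.5 TPM in control, 62.8 and 46.5 TPM under TCP, 17.1 and 16.8 TPM under palbociclib, and 28.6 and 28.3 TPM under the combination. No treatment overlapped another in its libraries, and the combination stood between palbociclib and control. The decrease under palbociclib was a log2 fold change of -1.31 (standard error 0.14, limma adjusted p = 0.000581), and the mean TPM fell by 61.1%. Under the combination it was -0.60 (limma adjusted p = 0.00992), -0.36 after median-ratio scaling (adjusted p = 0.0478), and short of 0.05 without DMSO replicate 1 (adjusted p = 0.0612) or without combination replicate 2 (adjusted p = 0.0534). TCP alone gave 0.30 on the log2 scale, which was not past the test (95% interval -0.03 to 0.63, limma adjusted p = 0.619).

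Adding TCP to palbociclib raised ETV5, by 1.67 times in TPM and 0.71 on the log2 scale (standard error 0.14, limma adjusted p = 0.0452, which the replicate block lowered to 0.0185). It was the only one of the 9 genes past an adjusted p of 0.05 in this comparison, which 3.49% of all tested genes passed (8.87% with the block), and none of the 9 was a DEG in it, beside 0.502% of all genes. The libraries of 5 of the 9 genes did not overlap between these groups, beside 53.7% of all genes. The value was above 0.05 without the filter on low values (adjusted p = 0.0821), without a trend in the moderation (0.0647) and when any control, palbociclib or combination library was left out (0.0819 to 0.234). Whether TCP acted differently on ETV5 with and without palbociclib was tested as the interaction, which was 0.41 (standard error 0.20, limma adjusted p = 0.835). The combination remained below TCP alone by -0.90 (limma adjusted p = 0.00195).

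SPRY2 (chromosome 13, 80910111 to 80915261, minus strand) had 12.7 and 7.80 TPM in control, 11.9 and 5.92 TPM under TCP, 6.97 and 4.78 TPM under palbociclib, and 4.95 and 3.33 TPM under the combination. Every library with palbociclib was below both control libraries, and the replicates of each group lay far apart. On the log2 scale SPRY2 fell by 1.11 under the combination (standard error 0.36, limma adjusted p = 0.0347), and its mean TPM fell by 59.6%. Under palbociclib the log2 fold change was -0.69, short of the test (limma adjusted p = 0.155). With the replicate number as a block, it passed (adjusted p = 0.0062) and the decrease under the combination became a DEG (adjusted p = 0.000731). In the model without the block, the decrease under the combination was short of 0.05 after median-ratio scaling (adjusted p = 0.0663), without the filter on low values (0.0736), and without DMSO replicate 1 (0.179) or either combination replicate (0.0585 and 0.171).

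DUSP6 (chromosome 12, 89741012 to 89746278, minus strand) had 103 and 86.6 TPM in control, 109 and 73.8 TPM under TCP, 76.0 and 79.3 TPM under palbociclib, and 72.6 and 73.6 TPM under the combination. The libraries with palbociclib lay below those of control, while the TCP libraries overlapped those of control and palbociclib. Its log2 fold change was -0.28 (95% interval -0.70 to 0.14, limma adjusted p = 0.236) under palbociclib and -0.36 (95% interval -0.78 to 0.05, limma adjusted p = 0.122) under the combination, so no change in this ERK phosphatase was detected. The combination value did pass when a TCP library was left out (adjusted p = 0.018 and 0.0179) or when only control and combination were fitted (0.0343).

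The genes of the STAT5 arm did not move together. SOCS3 (chromosome 17, 76352859 to 76356158, minus strand), which inhibits JAK kinases at cytokine receptors, had 55.5 and 52.5 TPM in control, 50.7 and 37.2 TPM under TCP, 126 and 136 TPM under palbociclib, and 145 and 152 TPM under the combination. The 4 libraries with palbociclib were all above the 4 without it, and both combination libraries were above both palbociclib libraries. SOCS3 rose 2.42 times in TPM under palbociclib, a log2 fold change of 1.26 (standard error 0.14, limma adjusted p = 0.000659). Under the combination it rose 2.75 times, a log2 fold change of 1.44 (limma adjusted p = 0.000243), and 3.37 times against TCP, 1.75 on the log2 scale (limma adjusted p = 0.000139). With each library left out in turn, the log2 fold change of SOCS3 under palbociclib ran from 1.20 to 1.32. The combination exceeded palbociclib by 0.18 (95% interval -0.15 to 0.51, limma adjusted p = 0.561), which was not past the test. TCP alone gave -0.31 (limma adjusted p = 0.601), and the interaction was 0.49 with an unadjusted limma p of 0.042 and an adjusted p of 0.766.

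SOCS2 (chromosome 12, 93963590 to 93977263, plus strand), a relative of SOCS3 known as a brake on growth hormone signaling, went the other way. It had 27.5 and 24 TPM in control, 25.2 and 23.1 TPM under TCP, 20.6 and 19.2 TPM under palbociclib, and 18.2 and 15.6 TPM under the combination. Each group with palbociclib lay below control without overlap. SOCS2 fell by 0.35 on the log2 scale under palbociclib (limma adjusted p = 0.0413) and by 0.58 under the combination (standard error 0.11, limma adjusted p = 0.00506), and it stood lower than under TCP by -0.49 (limma adjusted p = 0.0111). After median-ratio scaling, which removes the shift of the median gene, the decrease under palbociclib was -0.19 and no longer past the test (adjusted p = 0.199), and that under the combination was -0.35 (adjusted p = 0.0314). The decrease under palbociclib was likewise short of 0.05 after quantile normalization (-0.20, adjusted p = 0.153) and without the filter on low values (adjusted p = 0.0621). The palbociclib call was also lost when either control or either palbociclib library was left out (adjusted p = 0.0561 to 0.208), and the combination against TCP was short of 0.05 after median-ratio scaling (adjusted p = 0.0533) and without combination replicate 2 (0.0768).

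CISH (chromosome 3, 50643920 to 50649205, minus strand), whose promoter is printed above, had 108 and 68.8 TPM in control, 99.2 and 58.0 TPM under TCP, 113 and 95.8 TPM under palbociclib, and 108 and 91.7 TPM under the combination. All groups overlapped. The log2 fold change was 0.27 (95% interval -0.41 to 0.95, limma adjusted p = 0.473) under palbociclib and 0.20 (95% interval -0.48 to 0.89, limma adjusted p = 0.58) under the combination, and both intervals reach well to either side of 0.

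Of the PIM kinases, PIM2 fell and PIM1 showed no detectable change. PIM2 (chromosome X, 48770459 to 48776301, minus strand) had 95.2 and 91.6 TPM in control, 87.6 and 87.1 TPM under TCP, 74.9 and 76.6 TPM under palbociclib, and 65.8 and 66.7 TPM under the combination. Its replicates lay close together, and the 4 groups stood in the order control, TCP, palbociclib, combination with no overlap. PIM2 fell by 0.30 on the log2 scale under palbociclib (standard error 0.07, limma adjusted p = 0.00971) and by 0.49 under the combination (limma adjusted p = 0.000944), and was lower than under TCP by -0.39 (limma adjusted p = 0.0026). The step from palbociclib to the combination was -0.19 (95% interval -0.35 to -0.04) with an unadjusted limma p of 0.0222 and an adjusted p of 0.193. Median-ratio scaling left -0.12 under palbociclib (adjusted p = 0.207) and -0.25 under the combination (adjusted p = 0.0266), and against TCP -0.20 (adjusted p = 0.06). The decrease under palbociclib also missed 0.05 after quantile normalization (adjusted p = 0.061), without DMSO replicate 1 (0.0636) and without palbociclib replicate 1 (0.0518).

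PIM1 (chromosome 6, 37137928 to 37143204, plus strand) had 536 and 421 TPM in control, 443 and 313 TPM under TCP, 455 and 491 TPM under palbociclib, and 426 and 459 TPM under the combination. The palbociclib and combination libraries all lay between the control libraries. The log2 fold change was -0.01 (95% interval -0.43 to 0.41) under palbociclib and -0.10 (95% interval -0.52 to 0.32) under the combination, and both turned positive after median-ratio scaling (0.17 and 0.14). TCP alone gave -0.35 (limma adjusted p = 0.658), with its libraries overlapping those of control.

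STAT5A (chromosome 17, 40439565 to 40463961, plus strand), which encodes the transcription factor itself, had 15.8 and 12.5 TPM in control, 15.8 and 12.7 TPM under TCP, 22.1 and 18.6 TPM under palbociclib, and 20.7 and 16.9 TPM under the combination. The libraries with palbociclib were all above those without. Its log2 fold change was 0.50 under palbociclib (standard error 0.17, limma adjusted p = 0.0509) and 0.39 under the combination (limma adjusted p = 0.0954), both short of the test, and with the replicate block both passed it (adjusted p = 0.00188 and 0.00401). They also passed after median-ratio scaling (0.66 and 0.62 on the log2 scale, adjusted p = 0.0149 and 0.0161). STAT5B, its neighbor on the opposite strand, had 40.9 ± 2.89 TPM in control, 41.1 ± 2.92 with palbociclib and 36.8 ± 0.339 with both (SD, n = 2), with log2 fold changes of 0.01 and -0.15 that were not past the test (limma adjusted p = 0.971 and 0.28).

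Under the replicate block, 6 of the 9 genes had an adjusted p below 0.05 under palbociclib, in place of 4, and 6 under the combination, in place of 5, beside 55.5% and 61.6% of all tested genes. SPRY2 and STAT5A were the genes added under palbociclib. Against TCP alone, the combination had 1 DEG among the 9 genes, SOCS3, beside 12.2% of all genes, and 4 genes with an adjusted p below 0.05 beside 50.2%, which were 6 with the block beside 59.5%. The libraries of 7 of the 9 genes did not overlap there, beside 74.8%. No interaction of TCP and palbociclib was past the test for the 9 genes or for any tested gene, and 1 of the 9 had an unadjusted p below 0.05.

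The spread between replicates was itself uneven. In control and under TCP all 9 genes were higher in replicate 1 than in replicate 2, by medians of 0.25 and 0.44 on the log2 scale, while 49.7% and 57.2% of all tested genes were higher in replicate 1. Under palbociclib and the combination 5 of the 9 genes were higher in replicate 1, with medians of 0.02 and 0.01, near the 56.2% and 52.5% of all tested genes. CISH differed by 0.64 and 0.76 between the replicates of control and TCP, and SPRY2 by 0.64 and 0.90. FLT3 was also higher in replicate 1, at 249 and 221 TPM in control and at 263 and 182 TPM under TCP. The myeloid markers did not share a direction. LYZ, a mature myeloid gene, was lower in replicate 1, at 278 and 770 TPM in control and 718 and 1696 TPM under TCP. SPI1 was also lower in replicate 1 of both groups. PTPRC was higher in replicate 1, at 42.2 and 39.9 TPM in control and 39.5 and 27.8 TPM under TCP. CD33 was also higher in replicate 1, at 109.7 and 102.8 TPM in control and 108.3 and 107.7 TPM under TCP, and CSF1R and MPO hardly differed. With palbociclib LYZ stood at 16431 and 18984 TPM, and with both inhibitors at 26591 and 28617 TPM. The part of the difference between replicates in the results was not tested beyond the replicate block and the libraries left out.

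**Figure D3:**
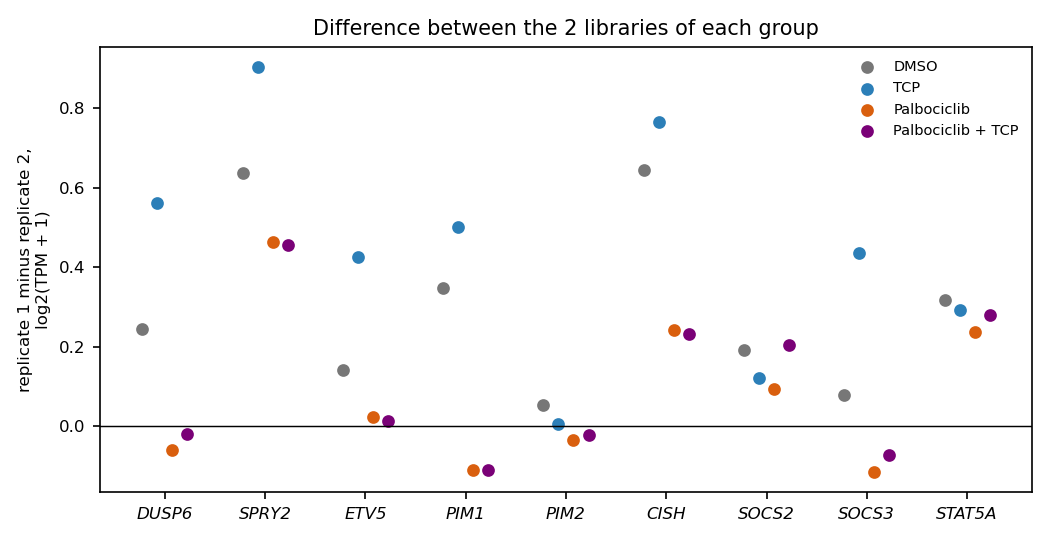
Difference between replicate 1 and replicate 2 of each group on the log2(TPM + 1) scale (vertical axis) for the 9 tested genes. Points of control and TCP are above 0 for all 9 genes, those of palbociclib and the combination for 5 of 9.

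Upstream of these outputs stood a list of 25 genes from the receptor to the kinases, all of which were tested. Under palbociclib 9 of them fell and 1 rose, and under the combination again 9 fell and 1 rose, beside 30.2% and 37.6% of all genes that fell and 14.8% and 15.9% that rose. The median of the list was -0.16 and -0.15, near that of all genes at -0.16 and -0.22. FLT3 was the only DEG of the list. It fell from 235 ± 19.4 TPM in control to 82.3 ± 17.7 TPM with palbociclib and 71.8 ± 13.1 TPM with both inhibitors (SD, n = 2), log2 fold changes of -1.52 and -1.71 (standard error 0.22, limma adjusted p = 0.00194 and 0.00083). Without DMSO replicate 1, DMSO replicate 2 or palbociclib replicate 2, FLT3 still fell under palbociclib (adjusted p = 0.0158, 0.0121 and 0.0159) but was no DEG there. Under TCP alone FLT3 stood at 223 ± 57.4 TPM (SD, n = 2). The gene that rose was the adaptor GRB2, named here after its value was seen, from 512 ± 3.20 TPM in control to 782 ± 39.4 and 791 ± 10.6 TPM (SD, n = 2).

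A list of 18 other MAPK outputs had 13 genes tested, of which 5 fell and 0 rose under palbociclib, and 6 fell and 2 rose under the combination, beside the 30.2% and 37.6% of all genes that fell and the 14.8% and 15.9% that rose. Its median was -0.60 and -0.53 on the log2 scale, against -0.16 and -0.22 for all genes. ETV4, a relative of ETV5, fell most. It had 29.3 ± 1.47 TPM in control, 27.6 ± 0.877 with TCP, 3.66 ± 1.05 with palbociclib and 2.87 ± 0.0413 with both (SD, n = 2), log2 fold changes of -2.72 and -2.97 against control (limma adjusted p = 8.57e-05 and 3.19e-05). Unlike ETV5, ETV4 was not higher under the combination than under palbociclib (-0.25, limma adjusted p = 0.469), and the difference between these genes was not tested. IER2, an immediate early gene, fell by 1.05 under palbociclib and by 1.19 under the combination (limma adjusted p = 0.000698 and 0.000271). DUSP7, an ERK phosphatase related to DUSP6, fell from 92.7 ± 6.28 TPM to 50.04 ± 0.245 and 45.7 ± 2.50 TPM (SD, n = 2) under palbociclib and the combination. DUSP4 and PHLDA1, named here after their values were seen, were the 2 that rose under the combination. DUSP4 had 1.64 ± 0.323 TPM in control, 3.47 ± 0.428 with TCP, 1.89 ± 0.381 with palbociclib and 3.95 ± 0.970 with both (SD, n = 2). Its increase passed the test under the combination (limma adjusted p = 0.00857) and not under TCP alone (0.77 on the log2 scale, limma adjusted p = 0.269). The combination against TCP was 0.13 and not past the test (limma adjusted p = 0.608). PHLDA1 went from 3.09 ± 0.965 to 8.57 ± 0.703 TPM (SD, n = 2, limma adjusted p = 0.0143). EGR1, a zinc finger factor induced by ERK, fell from 44.6 ± 18.3 TPM to 9.33 ± 3.09 TPM under the combination (SD, n = 2, limma adjusted p = 0.00477), while its decrease to 19.1 ± 9.79 TPM under palbociclib (adjusted p = 0.0488) was past 0.05 in 2 of the 8 fits with a library left out. With TCP alone EGR1 had 20.6 ± 3.73 TPM (SD, n = 2), which was not past the test against control (limma adjusted p = 0.538). EGR1 under the combination was not past the test against TCP either (limma adjusted p = 0.0631). SPRY1, the remaining Sprouty gene of the list, did not reach 1 TPM in any library and was left untested.

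A list of 15 other STAT5 outputs had 13 genes tested, of which 8 rose and 2 fell under palbociclib and likewise under the combination. Of all genes, 14.8% and 15.9% rose and 30.2% and 37.6% fell in these comparisons. Its median was 0.38 and 0.46, against -0.16 and -0.22 for all genes. The list includes BCL6, which STAT5 can lower, so its counts and median do not measure STAT5 output in a common direction. BCL6, a transcriptional repressor that STAT5 is known to hold down in several cell types, rose from 1.22 ± 0.690 TPM in control to 5.85 ± 1.94 TPM with palbociclib and 19.1 ± 1.62 TPM with both (SD, n = 2), and was higher in the combination than under palbociclib by 1.58 on the log2 scale (limma adjusted p = 0.0302), a call lost when a palbociclib or combination library was left out (0.0661 to 0.191). CCND3, which encodes cyclin D3, a partner of the kinases palbociclib inhibits, rose from 203 ± 6.92 to 349 ± 14.5 and 388 ± 31 TPM (SD, n = 2). ID1 rose from 1.75 ± 0.172 to 8.43 ± 0.821 and 5.72 ± 0.226 TPM (SD, n = 2). IL2RB, a receptor chain of interleukin 2, fell from 2.47 ± 0.379 to 0.139 ± 0.0527 and 0.240 ± 0.00347 TPM (SD, n = 2). PIM3, the remaining PIM kinase, rose from 103 ± 2.36 TPM to 151 ± 21.4 TPM with palbociclib and 142 ± 18.1 TPM with both (SD, n = 2, limma adjusted p = 0.0119 and 0.0186). The PIM3 call under palbociclib was lost without DMSO replicate 1 (adjusted p = 0.0609) or palbociclib replicate 2 (0.0719), and that under the combination without either DMSO replicate (0.0832 and 0.0619) or combination replicate 2 (0.118). SOCS1 had 9.68 ± 4.12 TPM in control, 6.86 ± 0.823 with palbociclib and 13.3 ± 2.76 with both (SD, n = 2), without passing the test (limma adjusted p = 0.358 and 0.271).

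**Figure D4:**
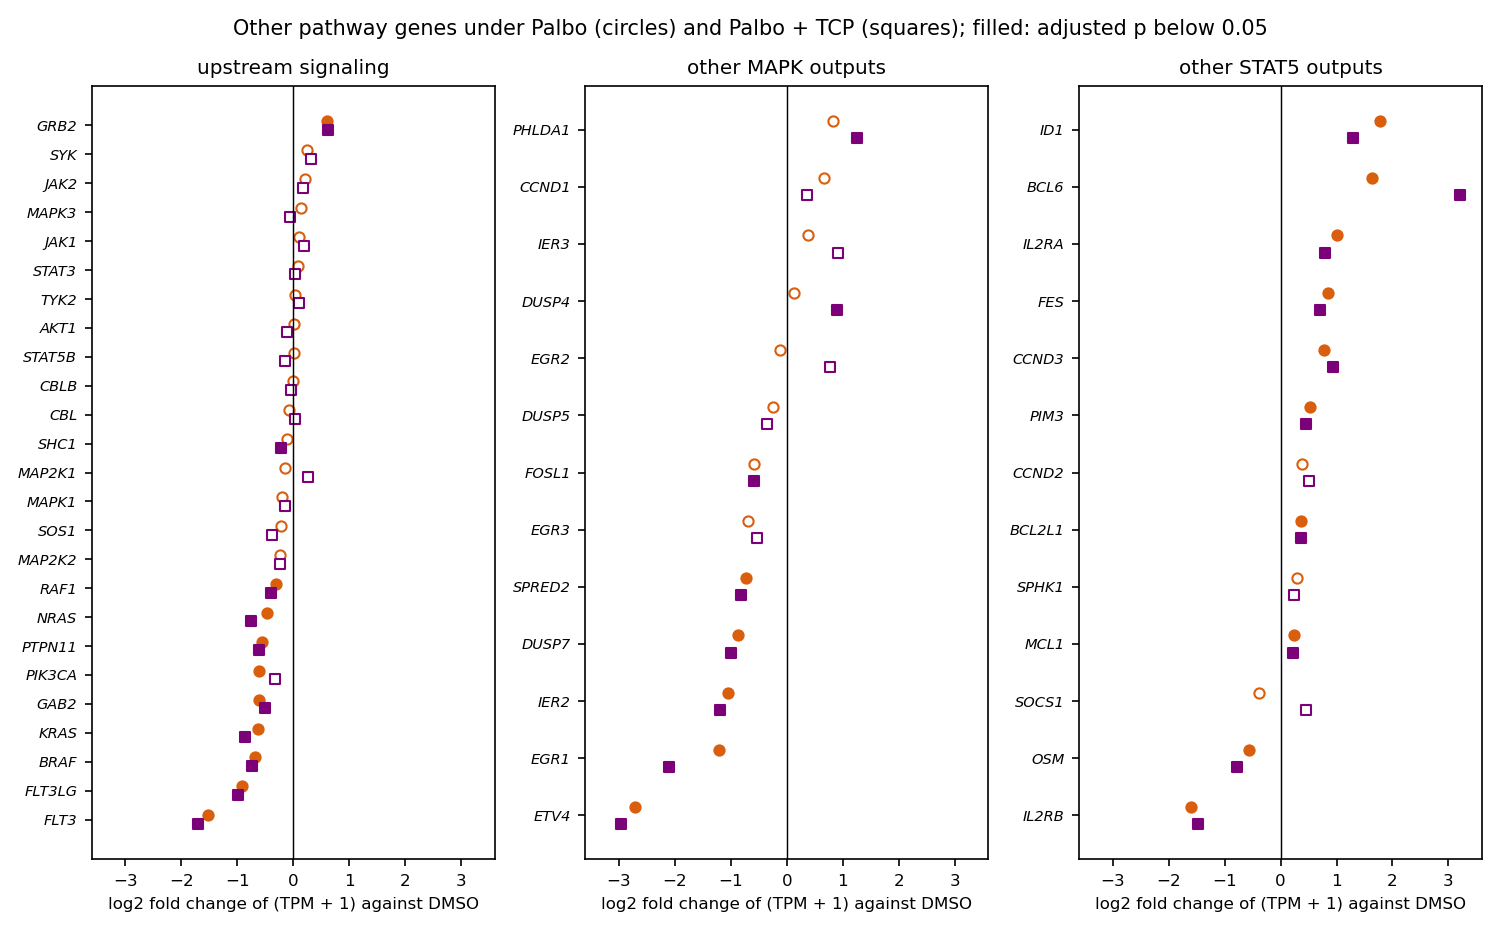
Log2 fold change of (TPM + 1) against control (horizontal axes) of the tested genes of the 3 other lists, under palbociclib (circles) and the combination (squares). Filled symbols have an adjusted p below 0.05. FLT3 and ETV4 are lowest in their lists under both treatments, and 8 of the 13 STAT5 outputs lie above 0 with filled symbols under each.

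SOCS3 was the only one of the 10 genes that was a DEG under the combination, and PLEKHM3 (Pearson's r = 0.995) and GABARAPL1 (r = 0.994) were among the genes whose log2(TPM + 1) followed it most closely over the 8 libraries. GABARAPL1, which encodes an autophagy protein of the ATG8 family, had 5.27 to 8.66 TPM in the 4 libraries without palbociclib and 23.7 to 24.6 TPM in the 4 with it. These 8 points share the 4 treatments, and the values are given as a description.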

How the data were processed

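RNA-seq values of 8 MV4-11 libraries were analysed, 2 for each of 4 treatments, grouped by the study's labels. The authors used subread-align on hg19 (GRCh37), took gene counts from featureCounts (version 1.6.4 in the submitters' processing notes), converted them and deposited TPM. According to the methods, the libraries were made with a stranded mRNA kit. The gene annotation and the strand setting of the counting are not given in the sources used here. In a GENCODE annotation of GRCh37, exons of CISH, DUSP6, SOCS2 and STAT5A overlap a gene on the opposite strand. These genes can have exchanged reads if the counting ignored the strand. Exons of ETV5 overlap DGKG on the same strand, so these 2 genes can have exchanged reads, as can the similar STAT5A and STAT5B. TPM keep no read depth, and no interval that needs counts is given. The count model DESeq2 was not used, since TPM are no counts. Instead, limma (3.58.1, R 4.3.3) was fitted to log2(TPM + 1) of the 8 libraries with a term for each group, a mean-variance trend and 4 residual degrees of freedom. Of 26364 genes, 14151 reached 1 TPM in 2 or more libraries, and p-values were adjusted over these. The procedure was tested on simulated data.

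The same-numbered libraries deviated together from their group means in all 6 pairs of groups (correlations across genes of 0.169 to 0.491). These values alone are the ground for a pairing by replicate number. The main fit had no term for this pairing, which entered only as the replicate block, an alternative setting. Values given without mention of the block are thus unpaired. Named genes were the 10 members, the genes of 3 pathway lists that were a DEG in at least 1 comparison, and FLT3, STAT5B, SPRY1, PIM3 and SOCS1. GRB2, DUSP4 and PHLDA1 were added after their values were seen. For each of up to 2 members with the largest change among the combination DEG, the 3 genes with the highest correlation were taken, of which 1 is not reported here. The members and lists were chosen with earlier results of these data known. Alternative settings were no filter, a filter on a mean of 5 TPM, a pseudocount of 0.1, quantile normalization, median-ratio scaling, the replicate block, a fit of the groups compared, no trend, an adjusted p below 0.05 with no fold limit, and each library left out. Primary AML samples were not analysed here.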

Additional observations from a re-analysis of the deposited data

How the results depend on the processing

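The counts of the 10 genes past the DEG thresholds were 0 under TCP, 2 under palbociclib, 1 under the combination, 0 for the combination against palbociclib, 1 against TCP and 0 for the interaction. With an adjusted p below 0.05 and no fold limit they were 4 under palbociclib, 5 under the combination, 1 against palbociclib and 4 against TCP, and with the replicate block the count under the combination was 2. The replicate block moved no other of these 6 counts. With each library left out in turn the counts ran from 0 to 0 under TCP, 2 to 2 under palbociclib, 1 to 1 under the combination, 0 to 0 against palbociclib, 1 to 2 against TCP (2 without TCP replicate 2, where ETV5 joined) and 0 to 0 for the interaction. All other alternatives kept these 6 counts within 1.5 times.

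Median-ratio scaling turned PIM1 to 0.17 under palbociclib and 0.14 under the combination and STAT5B to 0.0944 under the combination, and quantile normalization turned PIM1 to 0.0425 under palbociclib and STAT5B to 0.0718 under the combination. With libraries left out, PIM1 ran from -0.18 to 0.17 under palbociclib and from -0.28 to 0.0709 under the combination, CISH from -0.0514 to 0.59 and from -0.12 to 0.53, and, under palbociclib, STAT5B from -0.0650 to 0.0769 and SOCS1 from -0.79 to 0.0135. None of these was past the test, and the cause was not tested. Among the other pathway genes, ID1 and IL2RB lost their DEG call under both treatments with single libraries left out, as did FLT3, BCL6 and IER2 under palbociclib and DUSP7 and EGR1 under the combination, in the same direction and with an adjusted p of at most 0.0341. Over all genes, the DEG count of TCP was 8 and lay between 0 and 20 at these thresholds, and that of the combination against palbociclib was 71 and lay between 1 and 114, with 114 from the block and 1 when any 1 of the palbociclib or combination libraries was left out. The count of palbociclib was 1288, and 783 without palbociclib replicate 2, and the interaction, 0 otherwise, gave 7 without the filter. At an adjusted p below 0.05 with no fold limit the counts were 61 for TCP, 6369 for palbociclib, 7581 for the combination, 494 against palbociclib and 7105 against TCP. The interaction could not be fitted on the compared groups alone. The depth behind the TPM is unknown, so what it limits could not be assessed.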
